A study of Mus musculus with 9 samples.

Results

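The 10 genes described here are the ERK feedback genes Dusp6, Dusp4, Dusp5, Spry1, Spry2, Spry4, Spred1, Spred2, Spred3 and Etv4. They were picked by name from the 53801 genes of the count table, and they were selected on their measured levels in these same libraries, so their levels and their differences between groups are a description and carry no p-value. All 10 had a row, and all 10 were among the 22452 genes with enough counts to be tested. RNA-seq was available for 9 libraries of a mouse line of cultured spermatogonial stem cells (SSCs), the testis cells that both renew themselves and give rise to sperm. By the study's account the line came from Prmt5 flox/flox; Rosa26-CreERT2 mice, in which 4-hydroxytamoxifen (4OHT) activates a Cre recombinase expressed from the ubiquitous Rosa26 locus and so removes Prmt5, a gene for an arginine methyltransferase. Every group received 1 µM 4OHT, the control included. The 3 groups of 3 libraries each are labelled 4OHT, MU and OE. The labels do not spell out the last 2 names. From the study's text MU was read as 4OHT-treated cells given a catalytically dead PRMT5 and OE as 4OHT-treated cells given wild-type PRMT5. Cells without 4OHT were not analysed here. Animal age is not given for this line, and nothing states whether the 3 libraries of a group came from separate cultures, so the p-values below measure only the spread between these libraries, which may be technical.

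Receptor tyrosine kinases such as RET, the receptor of GDNF, and the FGF receptors signal through RAS, RAF and MEK to the ERK kinases. Active ERK switches on a set of genes whose products damp the same pathway. DUSP phosphatases remove the activating phosphates from ERK, Sprouty and SPRED proteins act higher up at RAS and RAF, and ETV4 is a transcription factor of the PEA3 group that ERK activates. GDNF and FGF2 are factors that sustain SSCs in culture. The study lists both for the medium in which another SSC line, from B6D2F1 mice, was established. It used media without GDNF in several experiments. Whether the medium of these 9 libraries held GDNF is not given in the sources used here.

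Levels are given in CPM, counts scaled by TMM to a common library size of 1000000. Prmt5, the targeted gene, was at 31.9, 30.8 and 28.2 CPM in the 4OHT libraries, at 145, 147 and 146 CPM in MU and at 1072, 1071 and 1085 CPM in OE. The groups did not overlap, and Prmt5 was 7.36-fold lower in MU than in OE. How far reads of the introduced PRMT5 enter these counts is not given in the sources used here. Total counts per library were 78751996 to 95370711 in 4OHT, 192033300 to 365719548 in MU and 79941857 to 154557863 in OE, and the MU libraries were the deepest. Fixed lists of cell type markers also differed between the groups. The summed level of 14 germ cell markers was 2044 to 2147 CPM in 4OHT, 3387 to 3483 CPM in MU and 3629 to 3681 CPM in OE. That of 15 fibroblast markers was 10239 to 12361 CPM, 5660 to 5734 CPM and 4425 to 4512 CPM. SSCs are commonly grown on fibroblast feeder cells. That of 13 macrophage markers was 178 to 193 CPM, 1145 to 1178 CPM and 2234 to 2358 CPM. Lyz2 made up most of this sum, at means of 151, 944 and 1878 CPM. Of the 13, 11 were higher in MU and in OE than in 4OHT, and C1qa and C1qb were lower. The summed level of 8 Sertoli and Leydig cell markers was 24.2 to 26.0 CPM in 4OHT, 16 to 17.6 CPM in MU and 15.3 to 16.9 CPM in OE. Sox9 and Star made up most of this sum. Sox9 was at means of 16.2, 6.81 and 6.05 CPM, and Star at 5.54, 6.41 and 6.1 CPM. Of the 5 markers tested, 2 were lower and 1 was higher in each comparison with 4OHT (edgeR adjusted p under 0.05). Among the 8, Hsd3b1 was at 0 counts in all 9 libraries, and Cyp17a1 and Insl3 were at most at a mean of 0.0617 CPM in any group. These sums move with the same groups as the feedback genes, and their part in the results below was not tested. In bulk RNA, fewer cells of a type and less RNA per cell cannot be told apart.

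The ERK feedback genes were all lower in MU and in OE than in 4OHT. The median log2 fold change of the 10 was -1.72 in MU and -1.95 in OE, where the medians over all genes tested were 0.04 and 0.02. The spread among them was wide, from Dusp4 at -3.37 in MU and -3.56 in OE to Spry1 at -0.29 and -0.38. MU and OE are compared with the same 3 4OHT libraries. All 10 had an adjusted p under 0.05 and a lower level in MU, beside 26.5% of all genes tested, and all 10 did in OE, beside 27.9% (edgeR quasi-likelihood test, Benjamini-Hochberg adjusted). For 9 of the 10, every MU library and every OE library lay under every 4OHT library, which held for 30.1% of all genes in MU and for 30.1% in OE. Because these contrasts were in view when the genes were picked, nothing is read from these counts.

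**Figure D1:**
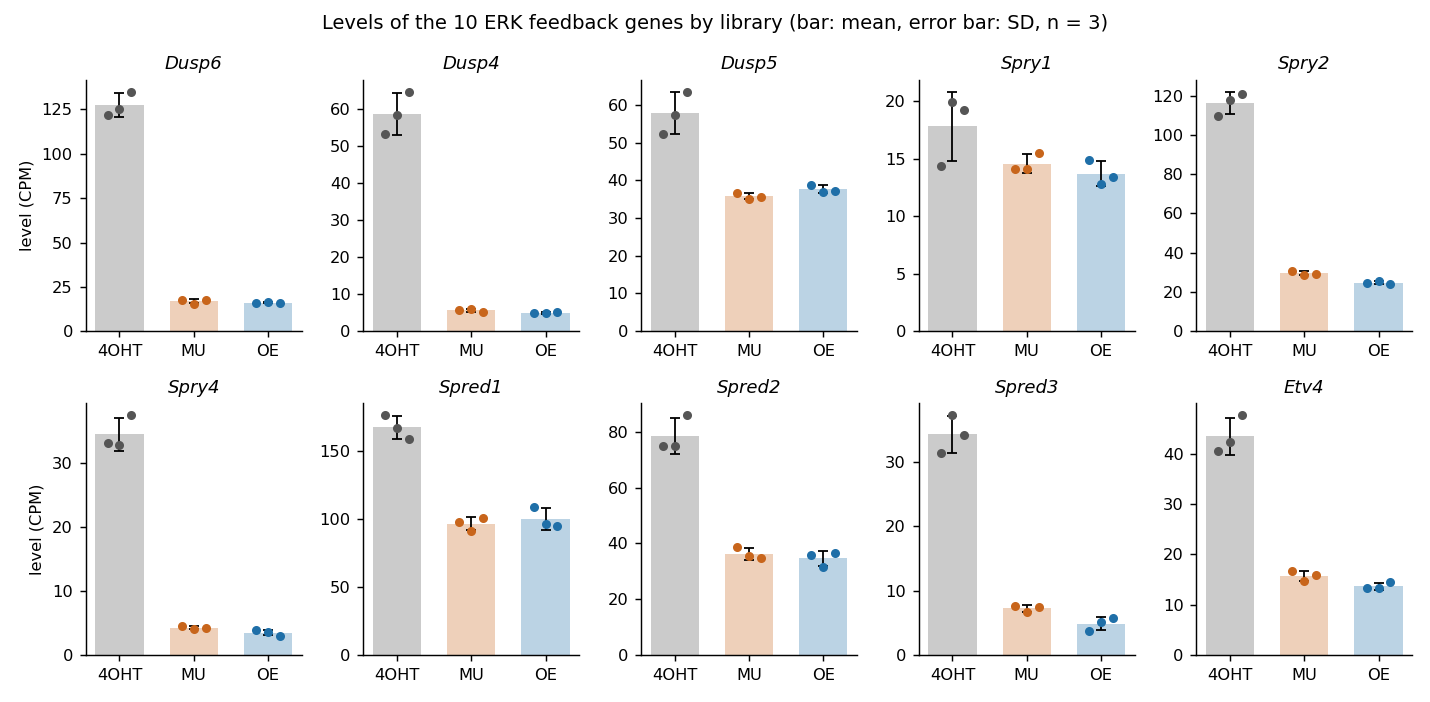
Level in CPM (vertical axes from 0, a separate scale for each gene) of the 10 ERK feedback genes in the 3 libraries of each group, as points, with the mean as a bar and the SD as an error bar. Dusp6, Dusp4 and Spry4 stand at 122 to 135, 53.4 to 64.8 and 32.8 to 37.4 CPM in 4OHT and at no more than 17.8, 6.10 and 4.51 CPM in the other libraries, whereas the Spry1 points of the 3 groups overlap.

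Among the phosphatases, Dusp6 and Dusp4 were the genes with the larger differences. Dusp6 (ENSMUSG00000019960, chr10:99263231-99267489, plus strand, GRCm38) encodes the cytoplasmic phosphatase specific for ERK. Its level was 122, 125 and 135 CPM in 4OHT, 17.8, 15.6 and 17.4 CPM in MU, and 16, 16.3 and 16 CPM in OE. MU and OE overlapped, and both stood far below 4OHT, at 13.3% and 12.6% of it (log2 fold changes of -2.91 ± 0.0655 and -2.98 ± 0.0666, SE). Of the genes tested, 0.842% had a lower log2 fold change than Dusp6 in MU and 1.52% in OE. Dusp4 (ENSMUSG00000031530, chr8:34807297-34819894, plus strand), which encodes a nuclear phosphatase of ERK and other MAP kinases, was at 53.4, 58.4 and 64.8 CPM in 4OHT, 5.77, 6.10 and 5.22 CPM in MU, and 4.82, 4.8 and 5.28 CPM in OE. It had the lowest log2 fold change of the 10 genes in both comparisons, 10.3-fold lower in MU (SE 0.0911 on the log2 scale) and 11.8-fold lower in OE (SE 0.0942).

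Dusp5 (ENSMUSG00000034765, chr19:53529109-53542431, plus strand), which encodes a nuclear phosphatase specific for ERK, differed much less. It was at 52.4, 57.4 and 63.5 CPM in 4OHT, 36.7, 35 and 35.7 CPM in MU, and 38.8, 36.9 and 37.1 CPM in OE. Its groups did not overlap, but MU and OE kept 62.0% and 65.1% of the 4OHT level (log2 fold changes of -0.69 ± 0.0673 and -0.62 ± 0.0678, SE). A gene annotated on the opposite strand overlaps Dusp5, and whether the counting used strand is not given in the sources used here. Per kilobase of exon, the 3 phosphatase genes summed to 85.5 ± 6.53 CPM per kb in 4OHT (SD, n = 3), 22.0 ± 0.651 in MU and 22.2 ± 0.366 in OE. Dusp6 made up 47.6% ± 1.14 of that sum in 4OHT, 24.6% ± 1.10 in MU and 23.2% ± 0.579 in OE. Dusp5 made up 27.3% ± 0.604, 65.9% ± 0.335 and 68.6% ± 0.843, so that the largest share lay with Dusp6 in 4OHT and with Dusp5 in MU and OE.

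The RefSeq promoter table of the same build (GRCm38.p6), with 250 bases before and 50 after each start site, held 7 of the 10 genes and none of Dusp4, Spry4 and Etv4. The 200 bases that end at the annotated gene start are shown for Dusp6 and Spry2, 2 of the genes with large differences, and for Dusp5, with a small one, because the motif content of their windows differed. Capitals mark the matches to the CArG box, the site of serum response factor, which works together with ETS factors that ERK phosphorylates.
Dusp6 (chr10:99263031-99263230, plus strand): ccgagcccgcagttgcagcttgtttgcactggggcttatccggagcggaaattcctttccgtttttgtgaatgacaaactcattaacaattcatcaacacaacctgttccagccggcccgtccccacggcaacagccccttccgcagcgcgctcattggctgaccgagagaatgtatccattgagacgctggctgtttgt
Spry2 (chr14:105896820-105897019, minus strand): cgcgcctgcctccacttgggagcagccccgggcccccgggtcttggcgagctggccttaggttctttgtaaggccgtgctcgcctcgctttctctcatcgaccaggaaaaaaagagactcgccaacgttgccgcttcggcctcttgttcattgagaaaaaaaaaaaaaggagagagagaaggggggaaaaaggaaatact
Dusp5 (chr19:53528909-53529108, plus strand): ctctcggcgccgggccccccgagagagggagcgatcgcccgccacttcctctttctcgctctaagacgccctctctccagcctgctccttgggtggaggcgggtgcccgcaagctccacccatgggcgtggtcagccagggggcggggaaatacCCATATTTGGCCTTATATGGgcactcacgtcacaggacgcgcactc

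Of the 7 windows, 1 held a CArG box, beside 1.63% of all 32851 promoter windows in the table. It was Dusp5, with 2 adjoining boxes between 82 and 63 bases before its RefSeq start. The ETS site CCGGAA was found in 1 of 7 windows, that of Spry2, at 33 to 38 bases after its start and so outside the stretch shown, and in 14.9% of all windows. The shorter ETS core GGAA was not searched for, and it occurs in the stretches shown. The GC box GGGCGG was in 5 of 7, those of Dusp5, Spry1, Spred1, Spred2 and Spred3, and in 35.7% of all. The AP-1 site TGANTCA (7.81% of all) and the cAMP response element TGACGTCA (1.79%) were in none of the 7. Both strands were searched with no mismatch. None of these motifs contains another. These matches describe the letters of the windows only.

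Of the Sprouty genes, Spry2 and Spry4 were much lower in MU and OE, and Spry1 only slightly. Spry2 (ENSMUSG00000022114, chr14:105891947-105896819, minus strand), an inhibitor of receptor signalling to RAS, was at 109.9, 118 and 121 CPM in 4OHT, 30.6, 28.8 and 29.2 CPM in MU, and 24.4, 25.6 and 24.1 CPM in OE. The 3 groups were fully separate, with OE lowest (log2 fold changes of -1.97 ± 0.0560 in MU and -2.23 ± 0.0572 in OE, SE). Spry4 (ENSMUSG00000024427, chr18:38586247-38601415, minus strand), another inhibitor of the family, was at 33.1, 32.8 and 37.4 CPM in 4OHT, 4.51, 4.08 and 4.13 CPM in MU, and 3.86, 3.53 and 3.01 CPM in OE. It too had 3 separate groups, and stood 8.13-fold lower in MU and 10-fold lower in OE (SE 0.104 and 0.108 on the log2 scale). Of all genes tested, 0.726% had a lower log2 fold change in MU and 1.04% in OE.

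Spry1 (ENSMUSG00000037211, chr3:37639947-37644598, plus strand), the family member known for its part in GDNF and RET signalling in the kidney, was at 14.4, 19.9 and 19.2 CPM in 4OHT, 14.1, 14.1 and 15.5 CPM in MU, and 14.9, 12.8 and 13.4 CPM in OE. The first 4OHT library lay within the range of the MU and OE libraries, and the other 4OHT libraries lay above all of them. Its log2 fold change was -0.29 ± 0.112 in MU and -0.38 ± 0.114 in OE (SE). Under 16 other ways of processing, it ran from -0.43 to -0.17 in MU and passed the threshold in 6 of them. In OE it ran from -0.52 to -0.28 and passed in 14 of the 16. Without 4OHT replicate 1, 2 or 3 it was -0.43, -0.19 or -0.24 in MU, so that the choice of 4OHT libraries set much of its size. Spry3, the remaining member of the family and not one of the 10, was at means of 2.04, 0.884 and 0.563 CPM in 4OHT, MU and OE, and fell in both comparisons (log2 fold changes of -1.21 and -1.87, edgeR adjusted p = 0.00367 and 0.000174). Per kilobase of exon, Spry1 made up 8.84% ± 1.08 of the sum of Spry1, Spry2 and Spry4 in 4OHT (SD, n = 3), 25.0% ± 1.37 in MU and 27.3% ± 1.90 in OE. Spry2 held the largest share in each group.

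SPRED proteins bind neurofibromin and bring this inactivator of RAS to the membrane. Spred1 (ENSMUSG00000027351, chr2:117121374-117182279, plus strand), the member lost in Legius syndrome, was at 176, 167 and 159 CPM in 4OHT, 97.8, 91.1 and 100.4 CPM in MU, and 109, 96.3 and 94.5 CPM in OE. MU and OE overlapped and kept 57.8% and 59.8% of the 4OHT level (log2 fold changes of -0.79 ± 0.0637 and -0.74 ± 0.0639, SE). Spred2 (ENSMUSG00000045671, chr11:19924375-20024026, plus strand), its close relative, was at 74.8, 74.9 and 85.9 CPM in 4OHT, 38.7, 35.4 and 34.8 CPM in MU, and 35.7, 31.6 and 36.6 CPM in OE. It kept 46.2% and 44.1% of the 4OHT level (-1.11 ± 0.0744 and -1.18 ± 0.0751), again with MU and OE overlapping. Spred3 (ENSMUSG00000037239, chr7:29158829-29170411, minus strand), the remaining member, was at 31.5, 37.3 and 34.2 CPM in 4OHT, 7.55, 6.68 and 7.47 CPM in MU, and 3.78, 5.17 and 5.72 CPM in OE. Its 3 groups were separate, and it had the lowest values of the family relative to 4OHT, 21.0% in MU and 14.3% in OE (-2.25 ± 0.126 and -2.80 ± 0.132). Spred3 overlaps Ggn, a protein-coding gene of the germ line on the opposite strand, which was at means of 1.39, 0.629 and 0.349 CPM in 4OHT, MU and OE. Reads of the 2 genes could not be told apart without strand, so the values of Spred3 are uncertain to that extent.

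Etv4 (ENSMUSG00000017724, chr11:101769742-101785371, minus strand) was at 40.5, 42.3 and 47.6 CPM in 4OHT, 16.6, 14.6 and 15.8 CPM in MU, and 13.2, 13.2 and 14.4 CPM in OE. All 3 groups were separate, and the level was 36.1% of 4OHT in MU and 31.3% in OE (log2 fold changes of -1.47 ± 0.0781 and -1.67 ± 0.0797, SE). The other PEA3 factors, which were not among the 10, fell further. Etv5, known as a GDNF-induced factor needed by SSCs, was at 121, 122 and 133 CPM in 4OHT, 14, 14 and 13.4 CPM in MU, and 12.4, 13.1 and 10.8 CPM in OE (log2 fold changes of -3.18 ± 0.0744 and -3.38 ± 0.0764, SE; edgeR adjusted p = 1.04e-12 and 5.14e-13). Etv1 was at 25.1, 24.2 and 22.2 CPM, 4.61, 3.84 and 4.46 CPM, and 2.82, 2.80 and 3.34 CPM (log2 fold changes of -2.47 and -2.99, edgeR adjusted p = 2.88e-10 and 5.42e-11).

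**Figure D2:**
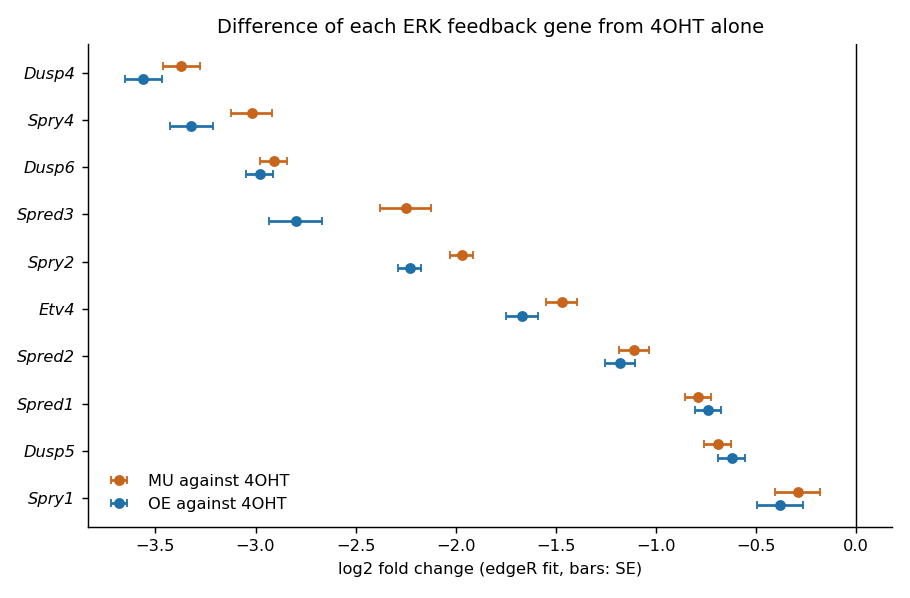
Fitted log2 fold change against 4OHT (horizontal axis) of each of the 10 ERK feedback genes (rows), for MU (orange) and OE (blue), with the SE as a bar. All 20 points lie under 0, from -3.56 for Dusp4 in OE to -0.29 for Spry1 in MU. Both comparisons share their 4OHT libraries.

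Compared per kilobase of exon, the order of the 10 genes was not the same in the groups. In 4OHT it ran from Spry2 (55.6 ± 2.69 CPM per kb, SD, n = 3) and Dusp6 (40.7 ± 2.23) through Spred1 (24.6 ± 1.26), Dusp5 (23.4 ± 2.26), Dusp4 (21.5 ± 2.08), Spred2 (17.0 ± 1.38) and Etv4 (14 ± 1.19) to Spry4 (7.24 ± 0.542), Spry1 (6.13 ± 1.04) and Spred3 (5.52 ± 0.469). The neighbours Spred1 and Dusp5, Dusp5 and Dusp4, and Spry1 and Spred3 overlapped between libraries, and the other neighbours did not. In MU the first 3 were Dusp5 (14.5 ± 0.355), Spred1 (14.2 ± 0.706) and Spry2 (14.2 ± 0.458), each overlapping the next. The last 3 were Dusp4 (2.08 ± 0.163), Spred3 (1.16 ± 0.0778) and Spry4 (0.892 ± 0.0489), without overlap. In OE the same 3 genes came first and the same 3 came last, with Spry2 (11.8 ± 0.395) below Dusp5 (15.2 ± 0.432) and Spred1 (14.7 ± 1.17), and with Spred3 (0.786 ± 0.161) and Spry4 (0.729 ± 0.0910) overlapping. The 10 genes summed to 216 ± 11.7 CPM per kb in 4OHT, 70.3 ± 2.39 in MU and 66.9 ± 1.81 in OE.

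**Figure D3:**
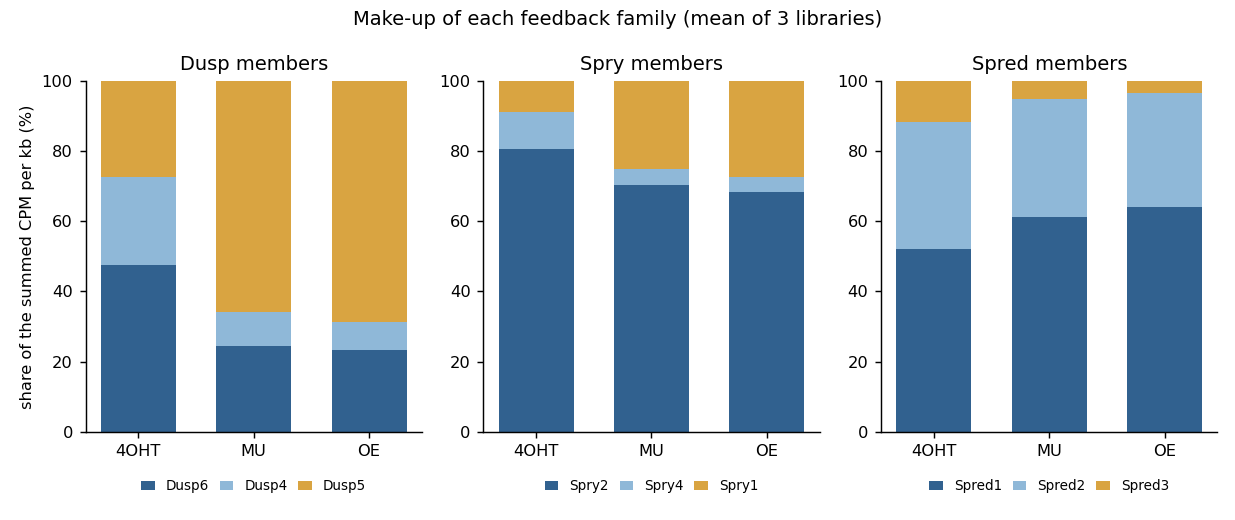
Share (vertical axis, %) of each gene in the summed CPM per kb of the 3 genes in its panel, as the mean of the 3 libraries of each group. The panels hold Dusp6, Dusp4 and Dusp5 (left), Spry2, Spry4 and Spry1 (middle) and Spred1, Spred2 and Spred3 (right). Other Dusp genes and Spry3 are not in these sums. Dusp9, for example, was at 42.3, 26.7 and 28.5 CPM per kb in 4OHT, MU and OE. Dusp5 goes from 27.3% in 4OHT to 65.9% in MU and 68.6% in OE, Spry1 from 8.84% to 25.0% and 27.3%, and Spred3 from 11.7% to 5.00% and 3.44%.

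Between MU and OE the feedback genes were much closer. The median log2 fold change of the 10, MU against OE, was 0.14, with 0.01 over all genes tested. It was above 0 for 8 genes and under 0 for Dusp5 (-0.07 ± 0.0672, SE) and Spred1 (-0.05 ± 0.0634). The largest differences were those of Spred3 (0.55 ± 0.127), Spry4 (0.30 ± 0.103) and Spry2 (0.26 ± 0.0552), each higher in MU with no overlap between libraries. Etv4 was also higher without overlap (0.20 ± 0.0780), Dusp4 higher with overlap (0.19 ± 0.0894), and Dusp6 (0.07 ± 0.0632), Spred2 (0.07 ± 0.0741) and Spry1 (0.09 ± 0.112) had overlapping groups. Dusp5 was lower in MU with no overlap. Thus 4 genes were higher without overlap, beside 13.0% of all genes tested, and 1 was lower, beside 12.8%. An adjusted p under 0.05 was reached by Spry2 and Spred3, both higher in MU, beside 2.12% of all genes, and by none that was lower, beside 1.06% (edgeR, Benjamini-Hochberg adjusted; none was lower at an unadjusted p under 0.05 or by DESeq2 either). Spry2 passed in 11 and Spred3 in 10 of the 16 alternatives. As this contrast was in view as well, no test is read from it. Of the 15 fibroblast markers, all 15 were higher in MU than in OE, by 0.29 to 0.85 on the log2 scale, and of the 13 macrophage markers 12 were lower. Their part in the differences of Spry2 and Spred3 was not tested.

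**Figure D4:**
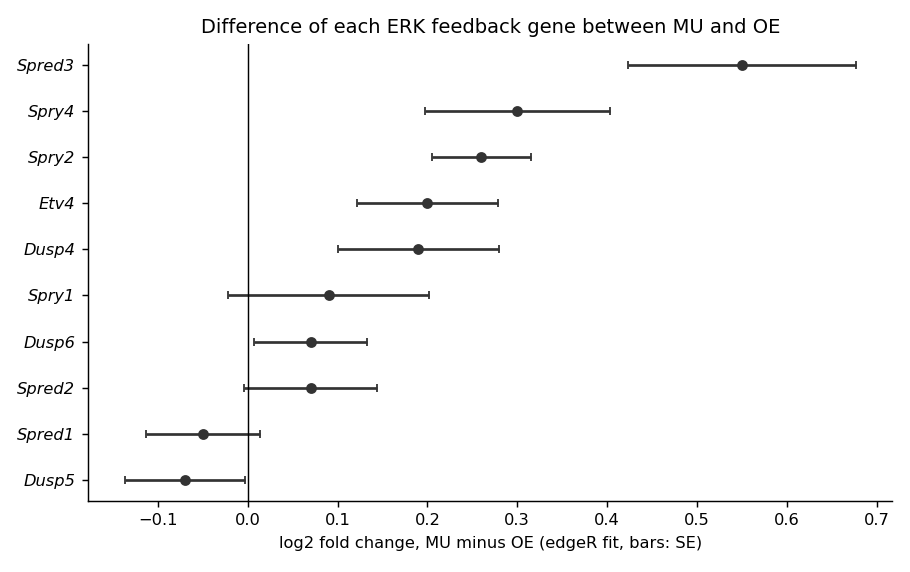
Fitted log2 fold change of MU against OE (horizontal axis) of each ERK feedback gene (rows), with the SE as a bar. The points lie between -0.07 for Dusp5 and 0.55 for Spred3, with 8 of 10 above 0.

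Set beside the fibroblast markers, 4 of the feedback genes, Dusp6, Dusp4, Spry4 and Spred3, had a lower log2 fold change than each of the 15 markers in both comparisons with 4OHT. The lowest marker was Tagln, an actin-binding protein of contractile cells, at -2.18 in MU and -2.56 in OE. The median of the 15 was -0.77 in MU and -1.16 in OE, and the highest was Dcn, a matrix proteoglycan, at 0.17 and -0.26. The other feedback genes lay within the range of the markers, from Spry2 (-1.97 in MU and -2.23 in OE) to Spry1 (-0.29 and -0.38). Of all genes tested, 2.08% in MU and 1.86% in OE had a lower log2 fold change than Spred3, the highest of the 4. The part of feeder cells in these values was not tested. The medians of the 14 germ cell markers were 0.71 and 0.80, and 9 rose, 4 fell and 1 did not pass the test in each comparison. Among these Ddx4, Dazl and Lin28a rose (log2 fold changes of 0.89, 0.85 and 0.99 in MU, edgeR adjusted p = 5.45e-09, 1.51e-08 and 2.92e-10), whereas Zbtb16, Nanos2, Nanos3 and Dppa3 fell (-0.67, -1.03, -0.33 and -0.52, edgeR adjusted p at most 0.00992). Genes known from undifferentiated spermatogonia were on both sides. Sall4 and Uchl1 rose in MU (0.65 and 0.85, edgeR adjusted p = 1.31e-06 and 3.39e-09), and Id4 was at -0.06 (edgeR adjusted p = 0.547). Zbtb16 and Nanos2, given above as falling in MU, fell in OE too (-0.54 and -0.67, edgeR adjusted p = 1.55e-06 and 0.00178). Sohlh1, which the study counts among differentiation genes, rose against 4OHT (0.84 in MU and 0.90 in OE, edgeR adjusted p = 4.16e-08 and 1.78e-08). The study reports it as lowered with the catalytically dead PRMT5. In MU against OE its log2 fold change was -0.06 (edgeR adjusted p = 0.762).

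The other genes of the pathway were read from 5 fixed lists without any of the 10 genes, and 88 of their 89 genes were tested. Of these 88, 53 fell and 18 rose in MU, and 55 fell and 20 rose in OE (edgeR adjusted p under 0.05). Among all genes tested 26.5% fell and 29.5% rose in MU, and 27.9% fell and 29.9% rose in OE. The median log2 fold change of the 88 was -0.42 in MU and -0.44 in OE. The lists were drawn up with earlier results of these data known and are no independent evidence of direction.

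Known transcriptional targets of ERK were the list with the lowest median. Of 17 genes, 16 fell in MU and 17 in OE. None rose by edgeR, at an adjusted or an unadjusted p under 0.05, or by DESeq2, and their median log2 fold change was -1.33 in MU and -1.70 in OE. Beside Etv5 and Etv1, the genes with the largest falls were Epha2, an ephrin receptor, and Ccnd1, which encodes the G1 cyclin D1. Epha2 was at 96.8, 111 and 128 CPM in 4OHT, 9.85, 11.3 and 11.7 CPM in MU, and 9.06, 10.9 and 10.9 CPM in OE (log2 fold changes of -3.35 ± 0.109 and -3.44 ± 0.111, SE; edgeR adjusted p = 2.03e-11 and 1.31e-11). Ccnd1 was at 613, 626 and 601 CPM, 93.0, 96.1 and 92.5 CPM, and 81.2, 78.5 and 75.5 CPM (log2 fold changes of -2.71 and -2.97, edgeR adjusted p = 1.13e-13 and 2.98e-14). The exception in MU was Egr1, an immediate early transcription factor, with a log2 fold change of -0.03 ± 0.0461 (SE; edgeR adjusted p = 0.648). In OE it fell by 0.15 on the log2 scale (edgeR adjusted p = 0.0152). That gene stood at 352, 346 and 379 CPM in 4OHT, 352, 349 and 355 CPM in MU, and 318, 330.1 and 325 CPM in OE.

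Other phosphatases of MAP kinases did not move as one. Of 10 genes, 4 fell and 2 rose in MU and in OE, with medians of -0.05 and -0.02 on the log2 scale. Ptpn5 had the largest fall, at low levels (means of 1.01, 0.425 and 0.352 CPM in 4OHT, MU and OE). Its log2 fold changes were -1.24 and -1.50 (edgeR adjusted p = 0.0085 and 0.00295). Dusp7, Dusp9 and Dusp8 fell modestly. Dusp7 and Dusp9 are the cytoplasmic relatives of Dusp6, and had log2 fold changes of -0.64 and -0.66 in MU and of -0.54 and -0.57 in OE (edgeR adjusted p = 6.73e-06, 3e-07, 3.27e-05 and 1.28e-06). Dusp8 had -0.51 and -0.60 (edgeR adjusted p = 0.0027 and 0.000826). Ptpn7, a phosphatase of ERK in blood cells, rose from a mean of 1.07 CPM in 4OHT to 3.83 in MU and 5.82 in OE (log2 fold changes of 1.85 and 2.45, edgeR adjusted p = 1.24e-06 and 7.37e-08), in the same direction as 11 of the 13 macrophage markers. Of all genes tested, 29.5% in MU and 29.9% in OE rose too. The part of macrophages in the rise of Ptpn7 was not tested. Dusp1, an immediate early phosphatase acting mainly on p38 and JNK, was at means of 105 ± 4.97, 102 ± 1.05 and 113 ± 2.30 CPM (SD, n = 3), with log2 fold changes of -0.04 in MU and 0.10 in OE (edgeR adjusted p = 0.505 and 0.0749). The sign of the MU value turned to 0.07 without TMM scaling. Dusp2, a nuclear phosphatase of immune cells, was near the threshold (log2 fold change 0.49 in MU, edgeR adjusted p = 0.048, and 0.40 in OE, 0.101). Ptprr was called higher in OE only (0.29 in MU, edgeR adjusted p = 0.0969, and 0.43 in OE, 0.0192). The genes that rose were thus Ptpn7 and Dusp2 in MU, and Ptpn7 and Ptprr in OE.

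**Figure D5:**
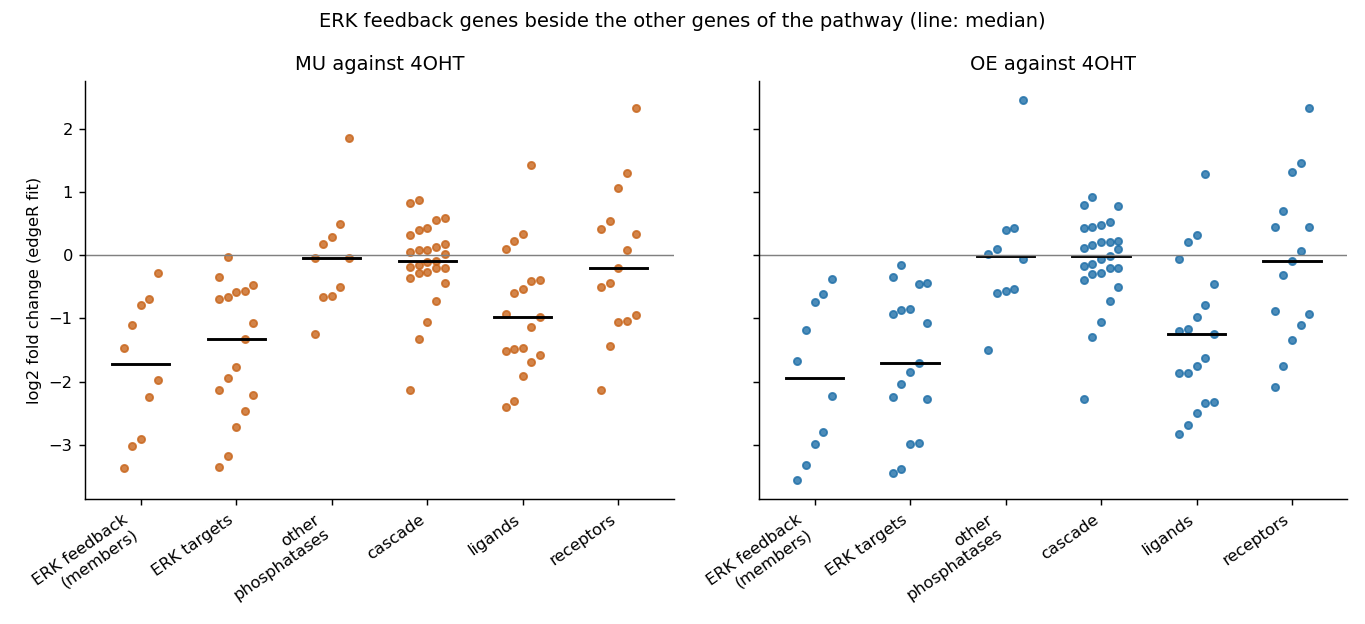
Fitted log2 fold change against 4OHT (vertical axis) of the 10 ERK feedback genes and of the genes of 5 other pathway lists (horizontal axis), in MU (left) and OE (right), with each gene as a point and the median as a black line. The feedback genes and the ERK targets have medians of -1.72 and -1.33 in MU and -1.95 and -1.70 in OE, and the cascade and the other phosphatases have medians between -0.09 and -0.01.

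The genes of the cascade itself, its kinases, adaptors and RAS regulators, changed in both directions. Of 27 genes, 12 fell and 8 rose in MU and 12 fell and 10 rose in OE, with medians of -0.09 and -0.01 on the log2 scale. The largest change was that of Rps6ka2, which encodes an RSK kinase downstream of ERK (log2 fold changes of -2.13 and -2.27, edgeR adjusted p = 1.63e-10 and 7.86e-11). Rasa1, an inactivator of RAS, and Shc1, a receptor adaptor, fell as well (-1.32 and -1.06 in MU, -1.29 and -1.06 in OE, edgeR adjusted p at most 6.28e-09). Ksr1, a scaffold of RAF, MEK and ERK, rose (0.87 and 0.91, edgeR adjusted p = 2.79e-07 and 1.62e-07).

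Ligands of the receptors mostly fell. Of 19 tested, 14 fell and 2 rose in MU, and 15 fell and 2 rose in OE, with medians of -0.98 and -1.24. Among ligands with a mean of at least 1 CPM over the 9 libraries, the largest falls were those of Nrg1, a ligand of the ERBB receptors (means of 30.4, 5.75 and 4.28 CPM in 4OHT, MU and OE), Ereg, which encodes the EGF receptor ligand epiregulin (97.3, 19.8 and 15.1 CPM), Gdnf (5.89, 1.57 and 1.06 CPM) and Hgf, the ligand of MET (7.07, 2.19 and 1.40 CPM). Their edgeR adjusted p was at most 7.45e-06 in MU and 8.14e-07 in OE. The receptors split, with 7 of 15 falling and 6 rising in both comparisons. Gfra1, the GDNF co-receptor, fell from 123, 116 and 122 CPM in 4OHT to 28.3, 27.6 and 26.7 CPM in MU and 27.8, 29.1 and 27.9 CPM in OE (log2 fold changes of -2.13 and -2.09, edgeR adjusted p = 1.64e-12 and 1.34e-12). Kit, the receptor that marks differentiating spermatogonia, rose from 17.2, 14.7 and 16.8 CPM to 79.2, 80.3 and 83.7 CPM and 83.6, 81.1 and 80.3 CPM (2.32 and 2.33, edgeR adjusted p = 4.2e-12 and 2.72e-12). The study reports Kit as lowered with the catalytically dead PRMT5. In MU against OE it was at -0.01 (edgeR adjusted p = 0.97). Pdgfrb, which like Pdgfra is also in the fibroblast list, fell (-1.43 and -1.76, edgeR adjusted p = 1.71e-09 and 2.07e-10). Among the FGF receptors, Fgfr3 rose from a mean of 4.39 CPM to 10.8 and 12.1 CPM (1.29 and 1.46, edgeR adjusted p = 4.04e-08 and 1.1e-08). Fgfr4 rose at lower levels (1.06 and 1.32), and Fgfr2 was not called. Fgfr1, the FGF receptor with the highest level, fell from a mean of 468 CPM to 226 and 217 CPM (-1.05 and -1.11, edgeR adjusted p = 8.15e-09 and 4.1e-09). Ret fell from a mean of 376 CPM to 195 and 203 CPM (-0.95 and -0.89, edgeR adjusted p = 4.3e-08 and 7.37e-08).

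Between MU and OE, 11 of the 88 pathway genes were higher in MU and none was lower at an edgeR adjusted p under 0.05. At an unadjusted p under 0.05 the counts were 21 higher and 7 lower, and with DESeq2 14 were called higher and 3 lower. They included the ligands Kitl (0.62), Nrg1 (0.42), Fgf7 (0.40) and Ereg (0.38), the receptors Pdgfra (0.43) and Pdgfrb (0.33), both also among the 15 fibroblast markers, of which 14 were called higher in MU, and the ERK targets Etv1 (0.52), Ier3 (0.37) and Ccnd1 (0.26), each given as a log2 fold change with an edgeR adjusted p of at most 0.0256. The calls of Nrg1, Ereg and Etv1 were each lost without the first or the third MU library and without the first or the second OE library. That of Pdgfrb was lost without any 1 of the MU libraries and without the first or the third OE library, and that of Fgf7 without the second OE library. None of the 27 cascade genes and none of the 10 phosphatases was called by edgeR (adjusted p from 0.0509 and from 0.0906 upward). At an unadjusted p under 0.05, 2 of each list were lower in MU, and DESeq2 called 1 cascade gene and 2 phosphatases lower.

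The genes whose log2 CPM followed Dusp6 most closely over the 9 libraries were Vcp-rs, Fosl1 and Ubr1 (Pearson's r of 0.9993, 0.9993 and 0.9992). Vcp-rs is a copy related to Vcp and may share its reads. For Spry4 they were Lif, Lrrc8c and Gas7 (0.9996, 0.9994 and 0.9994), and for Etv4 they were Myc, Nfkb1 and Epb41l4b (0.9997, 0.9987 and 0.9984). Fosl1 encodes an AP-1 factor and was at means of 43.0, 9.29 and 9.12 CPM in 4OHT, MU and OE, Lif encodes a cytokine and was at 66.6, 6.66 and 5.08 CPM, and Myc encodes a transcription factor and was at 33.7, 9.88 and 8.19 CPM. These values rest mainly on the gap between 4OHT and the other groups, and the points share their libraries and depth. Around the group means the correlations were lower. They were 0.70, 0.86 and 0.73 for Dusp6 with Vcp-rs, Fosl1 and Ubr1. For Spry4 with Lif, Lrrc8c and Gas7 they were 0.96, 0.91 and 0.88, and for Etv4 with Myc, Nfkb1 and Epb41l4b 0.97, 0.93 and 0.87. Among the 10 genes themselves, Pearson's r over the 9 libraries was at least 0.92 for every pair without Spry1 and between 0.70 and 0.80 for the 9 pairs with it. These values too rest mainly on the gap between 4OHT and the other groups, which was in view when the genes were picked. Values around the group means are not given for these pairs, so nothing is read from them.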

How the data were processed

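The data are mRNA-seq of 9 libraries from a mouse SSC line, with groups taken from the sample titles. The values the authors deposited are raw counts, whole and not normalized, for each gene. The study's methods and the submitters' processing notes name BBmap, Trimmomatic 0.39 (trimming), HISAT2 2.2.1 (alignment, GRCm38) and StringTie 2.2.1 (quantification). How that output became whole numbers, strand use and the treatment of multimapped reads are not given in the sources used here. Values of 4 counts were overrepresented, so a read pair may be about 4 counts, and dividing by 4 was an alternative.

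Genes were tested in R 4.3.3 with edgeR 4.0.16 (filterByExpr by group, minimum count 10 and minimum total count 15, TMM, quasi-likelihood fit of the group to all 9 libraries, two-sided, Benjamini-Hochberg adjustment over 22452 genes, threshold 0.05). SE is the log2 fold change divided by the square root of F. The common biological coefficient of variation was 0.155. A count of 3 corresponds to between 0.0082 and 0.0381 CPM, for counting error only. With 4 counts taken as 1 read pair, replicates of a group differed by more than sampling noise. Gene positions and union exon lengths came from GENCODE (GRCm38), and promoter windows from RefSeq.

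The 10 genes and all lists were chosen with earlier results of these data known. Named are the 10 genes, Prmt5, family relatives, from each list and comparison the 4 genes with the largest change (adjusted p under 0.05, mean of at least 1 CPM, no overlap), and the 3 genes most correlated with Dusp6, Spry4 and Etv4 (mean of at least 10 CPM). Marker genes were named as examples. Ret, Fgfr1, Fgfr2, Fgfr4, Ptpn5 and Ptprr were named in addition. Alternatives were DESeq2 1.42.0, other scalings, no filter, division by 4, 2 groups only, a replicate block and leaving out each library.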

Additional observations from a re-analysis of the deposited data

How the results depend on the processing

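The median log2 fold change of the 10 feedback genes stayed within the replicate spread under all 16 alternatives, and between -1.78 and -1.68 in MU against 4OHT, -2.01 and -1.91 in OE against 4OHT and 0.12 and 0.16 in MU against OE when single libraries were left out. Without TMM scaling the median of all genes in MU against 4OHT shifted by 0.112, and that of the 10 genes was -1.61. Counts of called genes against 4OHT stayed within 1.5 times. In MU against OE, the 712 called genes became 1565 with only these 2 groups in the fit and 1140 with DESeq2, and the 11 called pathway genes became 20 and 17. Leaving out single libraries gave 400 to 1099 genes, lowest without the second MU library and highest without the third 4OHT library, and 6 to 15 pathway genes, lowest without the third MU or the second OE library. The cause was not tested. The log2 fold change of Dusp1 in MU against 4OHT reversed to 0.07 without scaling, 0.02 without the filter and 0.01 without the second 4OHT library, and that of Dusp2 in MU against OE to -0.07 without the first OE library (-0.08 to 0.01 for Dusp1 and -0.07 to 0.19 for Dusp2 over the libraries left out). Whether the replicate numbers pair the libraries was not settled. Around the group means, same-numbered libraries correlated at -0.0289 to 0.154, with 4 of 9 pairs above 0.1, and differently numbered libraries at -0.159 to 0.108. With the replicate number as a block, 12443, 12807 and 674 genes and 72, 76 and 11 pathway genes were called in MU against 4OHT, OE against 4OHT and MU against OE.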
